A study of Mus musculus with 2 samples.

Results

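Cycling cells of the mouse anorectal epithelium were defined as cells with 3 or more UMIs (unique molecular identifiers, each 1 captured mRNA molecule) summed over Mki67 and Top2a, so the members were chosen by measured values of these same libraries. Of the 5086 cells that carry a deposited cluster name, 780 met this rule, 123 of 939 in the normal library and 657 of 4147 in the library made 1 week after a wound. They were set against the 674 and 2894 cells without a UMI of either gene, called 0-UMI cells here. The remaining 142 and 596 cells held 1 or 2 such UMIs and belonged to neither group. All mice were C57/BL6J and carried K17CreERT2;R26RGFP, in which the Krt17 promoter drives a tamoxifen-inducible Cre recombinase and recombined cells make a fluorescent reporter, and both groups received tamoxifen. In the wounded group, mice of 2 to 4 months had their anorectal region treated with hot EDTA and brushed mechanically. Epithelial cells were sorted on Epcam, a surface protein of epithelia, without cells that carry the immune, endothelial or fibroblast proteins CD45, CD11b, CD31 or PDGFRa, and tissue was pooled from several mice, so each condition was 1 library of pooled animals and no difference between the conditions had a replicate check. The normal library held 17617944 UMIs over 2564 barcodes and the wounded library held 88260050 UMIs over 17216 barcodes. Cells that carry a name had a median depth of 9724 UMIs (normal) and 10077 UMIs (wounded). Intervals below are at 95% and cover counting error only.

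Mki67 encodes Ki-67, a protein that coats mitotic chromosomes and is made from S phase to mitosis, and Top2a encodes the topoisomerase that untangles replicated DNA. Both mRNAs accumulate in G2 and mitosis and are scarce in resting cells. Genes of DNA replication are switched on earlier by E2F factors, whereas many mitotic genes are read late in the cycle under the DREAM and MuvB complexes, which bind an element known as CHR and cooperate with CCAAT boxes. In stratified epithelia such as the anal canal, division takes place in the basal layer and cells that move upward differentiate. In the rectum, division takes place in the lower crypt, and goblet and absorptive cells form higher up.

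Most of the genes whose levels stood furthest above those of 0-UMI cells were members of the mitotic lists, and promoters with and without the 2 elements are shown. The 10 genes with the largest ratio in both libraries were Mxd3, Nusap1, Kif11, Ube2c, Knl1, Pimreg, Hmmr, Plk1, Nek2 and Aurkb, and 8 of them had a RefSeq promoter window (250 bases before to 50 after the start, GRCm38.p6). The windows of 4 of them follow, 5′ to 3′ on the gene's strand. Kif11 (spindle motor) is at chr19:37376132-37376431 on the plus strand, Ube2c (ubiquitin-conjugating enzyme of the anaphase-promoting complex) at chr2:164769679-164769978 on the plus strand, Plk1 (mitotic kinase) at chr7:122159185-122159484 on the plus strand, and Mxd3 (Myc antagonist of the Mxd family) at chr13:55329682-55329981 on the minus strand. Capitals mark CHR (TTTGAA or TTCGAA) and CCAAT on either strand, and matches of different motifs may overlap.
Kif11: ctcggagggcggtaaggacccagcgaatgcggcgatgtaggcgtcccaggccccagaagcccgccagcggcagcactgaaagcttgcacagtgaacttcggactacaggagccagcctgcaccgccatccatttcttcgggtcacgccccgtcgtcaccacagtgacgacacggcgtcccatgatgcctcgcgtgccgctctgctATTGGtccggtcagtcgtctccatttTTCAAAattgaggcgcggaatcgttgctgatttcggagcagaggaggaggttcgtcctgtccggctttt
Ube2c: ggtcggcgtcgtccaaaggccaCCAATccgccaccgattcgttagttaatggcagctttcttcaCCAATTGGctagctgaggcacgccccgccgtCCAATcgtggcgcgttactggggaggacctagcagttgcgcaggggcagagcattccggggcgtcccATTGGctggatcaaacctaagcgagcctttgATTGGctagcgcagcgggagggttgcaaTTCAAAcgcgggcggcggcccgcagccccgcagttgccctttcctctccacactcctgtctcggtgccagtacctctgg
Plk1: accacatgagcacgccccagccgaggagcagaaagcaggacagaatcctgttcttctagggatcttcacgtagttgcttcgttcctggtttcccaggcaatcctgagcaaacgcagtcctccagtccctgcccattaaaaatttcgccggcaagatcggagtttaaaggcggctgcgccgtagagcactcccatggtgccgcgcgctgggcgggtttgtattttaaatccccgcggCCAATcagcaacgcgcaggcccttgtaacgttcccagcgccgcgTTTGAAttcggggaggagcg
Mxd3: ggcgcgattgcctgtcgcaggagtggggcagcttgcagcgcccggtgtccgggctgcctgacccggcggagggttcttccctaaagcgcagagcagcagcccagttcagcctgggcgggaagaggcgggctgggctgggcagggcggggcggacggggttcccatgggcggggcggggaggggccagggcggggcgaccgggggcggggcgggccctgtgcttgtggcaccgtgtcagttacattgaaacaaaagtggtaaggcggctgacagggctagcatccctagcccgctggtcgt

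CHR stood 19 bases before the start in Kif11 and 29 bases before it in Ube2c, whereas in Plk1 it began at base 31 after the start. Ube2c held 6 CCAAT boxes. Mxd3 and Nusap1, the first 2 genes in the order, held neither element. CHR was in 5 of the 8 windows (62.5%) and in 19.2% of all 32851 windows of the table. CCAAT was in 62.5% of the 8 windows and in 37.4% of all windows, and both together were in 4 of the 8 and in 7.52% of all. An E2F element (TTTCCCGC or TTTGGCGC) was in 0 of the 8 windows. Over the gene lists described below, CHR was in 67.9% of 28 windows of mitotic control genes and 76.5% of 34 windows of spindle genes, and in 14.8% of 54 windows of replication genes. The E2F element was in 25.9% of the replication windows, 10.7% of 28 kinetochore windows, 8.82% of the spindle windows and 0 of the mitotic control windows. It was in 1.56% of all windows. A match of letters is a description and was not tested as a binding site.

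The UMIs that chose the cells were spread over both genes. In the normal library 100 of the 123 cells held both mRNAs, 15 held Mki67 alone and 8 held Top2a alone. In the wounded library 479 of 657 held both, 137 held Mki67 alone and 41 held Top2a alone. The median was 8 UMIs per cell in the normal and 12 in the wounded library, with maxima of 37 and 72. Exactly 3 UMIs, the lowest number allowed, were found in 21 and 77 cells, and exactly 2 UMIs, just outside the rule, in 43 and 156 cells. The 2 matrices shared 1 barcode, which was not among the cells that carry a name.

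Other genes of mitosis were read in the same cells as a check of the label, although they are co-expressed with the rule genes and are no independent support. The summed level of 3 mitotic lists (control, kinetochore, spindle) was 679 CPM (UMIs of the genes per 1000000 UMIs of the cells) in normal 0-UMI cells, 4177 CPM with 2 UMIs, 5185 CPM with 3 UMIs and 13311 CPM with 20 or more. In the wounded library the same lists were at 552, 1679, 2061 and 13804 CPM. The level climbed without a step at the threshold, so cells just outside it were closer to those just inside it than to 0-UMI cells. Normal cells with 3 UMIs thus held 5185 CPM where wounded cells with the same number held 2061 CPM. The replication list climbed less, from 1134 CPM in 0-UMI cells to 3190 CPM in cells with 3 UMIs in the normal library, and from 730 to 1871 CPM in the wounded library.

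**Figure D1:**
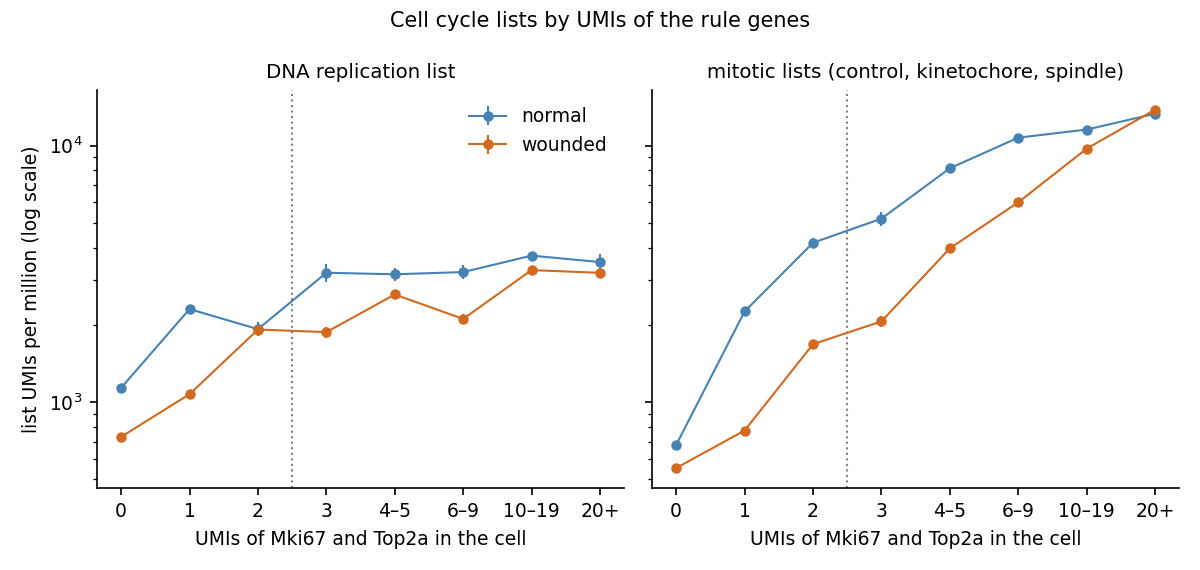
Summed level of the DNA replication list (left) and of the mitotic lists (right) in CPM on a log scale, for cells binned by their UMIs of Mki67 and Top2a, with 95% counting intervals and a dotted line at the rule. In cells without such UMIs the mitotic lists stood at 679 and 552 CPM, and the normal library lay above the wounded library in each bin from 0 to 19 UMIs.

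Cycling cells made up 13.1% (11.0 to 15.4) of the cells in the normal and 15.8% (14.7 to 17.0) in the wounded library. Among the names of the wounded library, Basal had the highest share, with 142 of 573 cells (24.8%, 21.3 to 28.5), and Suprabasal the lowest, with 111 of 1032 (10.8%, 8.93 to 12.8). Between them lay Regeneration with 175 of 991 (17.7%, 15.3 to 20.2), Hybrid with 48 of 316 (15.2%, 11.4 to 19.6), Rectum with 60 of 397 (15.1%, 11.7 to 19.02) and Wound_Stress with 121 of 838 (14.4%, 12.1 to 17.0). The intervals of these 4 names overlapped, that of Basal lay above all of them, and that of Suprabasal lay below Regeneration and overlapped the other 3. In the normal library the share was 66 of 432 (15.3%, 12.02 to 19.02) in Anal Canal, 31 of 257 (12.1%, 8.34 to 16.7) in Basal, 15 of 187 (8.02%, 4.56 to 12.9) in Suprabasal and 11 of 63 (17.5%, 9.05 to 29.1) in Rectum. Here the intervals of all neighbours in the order overlapped.

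A cell with more UMIs has more chance to pass a fixed number, so each cell was also thinned to 5000 UMIs, a depth that 197 normal and 849 wounded cells did not reach. The share was then 7.68% (57 of 742) in the normal and 12.8% (423 of 3298) in the wounded library. In the wounded library Basal was at 19.2%, Wound_Stress at 13.5%, Rectum at 12.9%, Regeneration at 11.6% and Suprabasal at 8.58%. The values of Basal, Regeneration and Suprabasal lay below their intervals for all cells. Hybrid moved to 28.1% (25 of 89), since 227 of its 316 cells were too shallow to enter. Levels of the rule genes without any threshold gave 135 CPM in the normal and 240 CPM in the wounded library, with 324 CPM in wounded Basal, 167 CPM in wounded Suprabasal and 479 CPM in Hybrid.

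**Figure D2:**
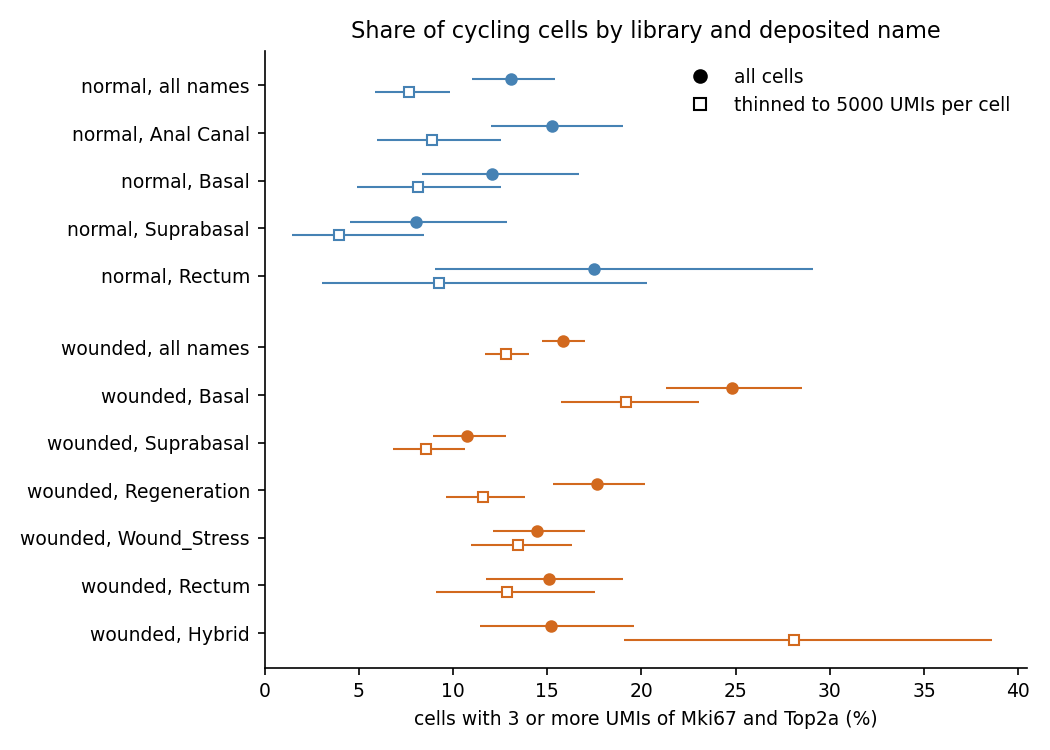
Share of cells with 3 or more UMIs of Mki67 and Top2a (x axis, percent) by library and deposited name, for all cells (filled circles) and for cells thinned to 5000 UMIs (open squares), with exact binomial 95% intervals. Wounded Basal had the highest share before thinning (24.8%), and Hybrid moved from 15.2% to 28.1% with thinning.

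The order of the libraries depended on which genes defined a cycling cell. With 15 or more UMIs of the 3 mitotic lists in place of the rule, in cells thinned to 5000 UMIs, the share was 19.4% (16.6 to 22.4) in the normal and 14.8% (13.6 to 16.1) in the wounded library. Per 1000 UMIs of the mitotic lists, the normal cells held 20.6 UMIs of Mki67 (18.96 to 22.3) and the wounded cells 57.3 (55.7 to 58.8). Top2a followed with 25.5 and 47.6. The rule genes were thus a larger part of the mitotic mRNA in the wounded library. The matrix headers name different Cell Ranger versions for the libraries, and the matrices list 31054 (normal) and 32285 (wounded) gene entries. The part that these, the libraries and the wound each have in the difference cannot be told apart.

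Cells that should not divide gave the background of the rule. Cells with 10 or more UMIs of Chga and Chgb, the granule proteins of enteroendocrine cells, met the rule in 0 of 6 cases in the normal library, which allows a share of up to 45.9%, and in 1 of 31 (3.23%, 0.0816 to 16.7) in the wounded library. Cells with 10 or more UMIs of Lor, Flg2, Lce3c and Cnfn, genes of cornifying cells, met it in 0 of 8 (up to 36.9%) and 0 of 21 (up to 16.1%). Median depths of these cells lay between 7664 and 10750 UMIs. The shares of wounded Basal and of all wounded cells together were above 3.23%, and the interval of that value overlapped the interval of the whole library.

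Cycling cells were deeper than the others. Their median was 17212 UMIs against 8742 UMIs in 0-UMI cells of the normal library and 12992 UMIs against 9450 UMIs in the wounded library. The ratio was 1.12 in wounded Suprabasal and 5.74 in Hybrid, where 0-UMI cells had a median of only 1706 UMIs. Cycling cells were also more often among the 6% of barcodes with the highest Scrublet scores, a simulated-doublet score, with 7.32% against 4.75% in the normal library and 12.2% against 4.11% in the wounded library. The share was 17.7% against 4.81% in Regeneration, 17.1% against 2.70% in wounded Suprabasal and 18.8% against 10.8% in Hybrid. In the normal library it was 33.3% against 5.59% in Suprabasal, with 15 cycling cells, and 1.52% against 1.44% in Anal Canal. Normal Rectum, with 11 cycling cells, went the other way, at 0% against 9.30%. Depth and doublet score therefore moved with the rule over each library. In normal Rectum the share with the highest scores did not, while the median score was 0.0724 in cycling and 0.0674 in 0-UMI cells. The part of depth and doublet score in the ratios below was tested only where a value without such cells is given.

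The contrast asked which other genes differed between cycling and 0-UMI cells of the same name. The level in 0-UMI cells was weighted to the mix of names among the cycling cells, and a gene was called when its ratio was 2-fold or more with at least 100 UMIs over both groups. In the normal library 357 of 6924 genes (5.16%) were called higher and 282 (4.07%) lower. In the wounded library 611 of 11102 genes (5.50%) were higher and 402 (3.62%) lower. These shares over all genes are the background for the list counts over all names below. Of 6815 genes that could be read in both libraries, 354 were called higher in the normal and 334 in the wounded library. In both, 273 were higher, which is 77.1% of the 354 and 81.7% of the 334. Of these 273, 128 were members of 8 cell cycle lists. On the lower side, 274 of the 6815 genes were called in the normal and 175 in the wounded library. Of these, 139 were shared, which is 50.7% of the 274 and 79.4% of the 175. A gene scarce in 0-UMI cells reaches 100 UMIs only where cycling cells hold it, so the counts of cell cycle members below describe the cells that the rule chose.

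Mitotic control genes (cyclins B, Cdk1, checkpoint and exit regulators) had a median log2 ratio of 4.68 in the normal and 5.31 in the wounded library, where the median of all genes was 0.076 and 0.087. All 27 members read in the normal library and 32 of 33 in the wounded library were 2-fold higher, and 6 of the 33 members did not reach 100 UMIs in the normal library. Plk1 (chr7:122159439-122169873), the kinase that drives mitotic entry and exit, was at 77.9 CPM in normal cycling cells and 0.204 CPM in 0-UMI cells, and at 63.8 and 1.08 CPM in the wounded library. Its log2 ratios were 8.58 (5.74 to 11.4) and 5.89 (5.19 to 6.59), the first resting on 1 UMI in the 674 0-UMI cells. Ube2c (chr2:164769898-164778822) was at 416 and 4.40 CPM in the normal and 307 and 4.62 CPM in the wounded library, which gave 6.56 (5.95 to 7.17) and 6.05 (5.73 to 6.38). Both genes were nearly absent from 0-UMI cells of both libraries.

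Spindle and cytokinesis genes had medians of 5.13 and 5.46, with all 23 and all 33 readable members of 35 higher. Kif11 (chr19:37376403-37421859), the motor that pushes spindle poles apart, was at 65.9 and 0.968 CPM in the normal and at 99.6 and 1.04 CPM in the wounded library, with log2 ratios of 6.09 (4.78 to 7.40) and 6.59 (5.89 to 7.29). Prc1, a bundler of midzone microtubules, had ratios of 6.93 and 5.86, and Nusap1, which binds spindle microtubules, had 6.26 and 6.67. Kinetochore genes had medians of 3.88 and 4.42, with 18 of 19 and 26 of 28 higher. Cenpf was at 316 CPM in normal and 561 CPM in wounded cycling cells, against 8.27 and 8.71 CPM in 0-UMI cells. Birc5, the survivin subunit of the chromosomal passenger complex, was at 428 and 290 CPM against 11.7 and 4.39 CPM. The log2 ratio of Cenpf was 5.26 (4.82 to 5.70) in the normal and 6.01 (5.78 to 6.24) in the wounded library, and that of Birc5 was 5.195 (4.82 to 5.57) and 6.05 (5.73 to 6.37), in both cases with intervals that did not overlap.

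**Figure D3:**
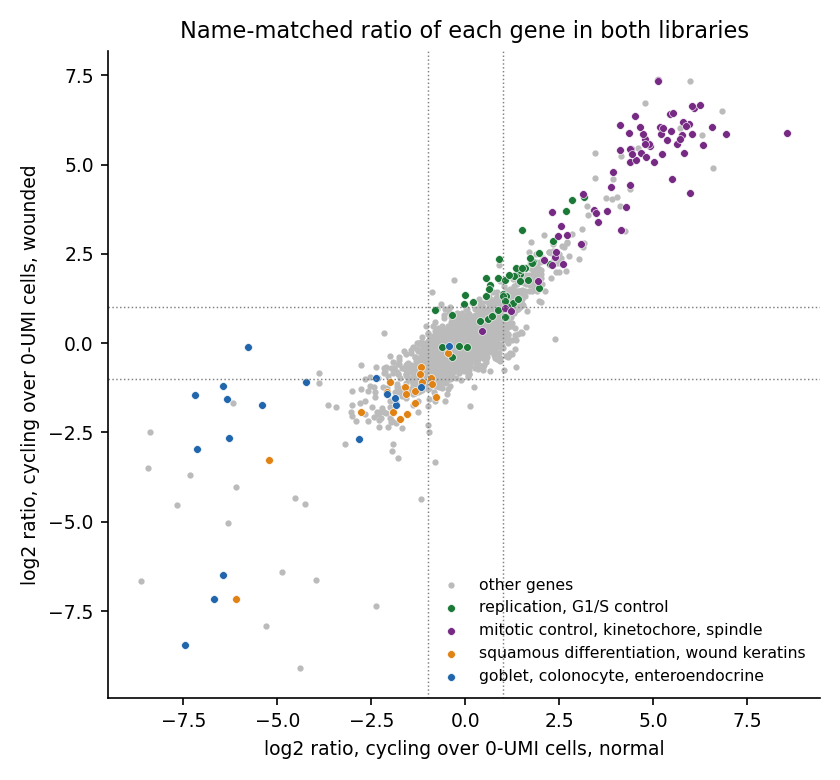
Name-matched log2 ratio of cycling over 0-UMI cells for each gene in the normal (x axis) and wounded (y axis) library, with dotted lines at 2-fold and colours for groups of lists. The mitotic lists lay at the upper right with medians of 3.88 or more, replication genes lay below them, and squamous and glandular genes lay at the lower left.

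Replication genes were higher by less. Of 60 members, 28 of 43 read in the normal and 52 of 57 in the wounded library were 2-fold higher, with medians of 1.28 and 1.91 and 0 lower. Rrm2, the regulated subunit of ribonucleotide reductase, was at 203 and 22.8 CPM in the normal and 93.4 and 5.44 CPM in the wounded library, with ratios of 3.16 (2.86 to 3.46) and 4.10 (3.83 to 4.38). Pcna, the sliding clamp of the polymerases, had 1.00 (0.767 to 1.23) and 1.36 (1.23 to 1.498). The ratios of the helicase subunits Mcm2 and Mcm5 differed between the libraries by more than counting error, a difference without a replicate check. Mcm2 had −0.03 (−0.47 to 0.40) in the normal and 1.10 (0.80 to 1.39) in the wounded library, and Mcm5 had 0.89 (0.55 to 1.23) and 2.35 (2.11 to 2.58), with intervals that did not overlap.

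The replication list also read 0-UMI cells. At least 10 of its UMIs were held by 111 of 123 cycling cells (90.2%) and 204 of 674 0-UMI cells (30.3%) in the normal library, and by 505 of 657 (76.9%) and 574 of 2894 (19.8%) in the wounded library. This fixed number was not adjusted for depth. Median depth was 17212 UMIs in cycling and 8742 UMIs in 0-UMI cells of the normal library, and 12992 and 9450 UMIs in the wounded library. The part of depth in these shares was not tested. The rule left cells with replication mRNA among the 0-UMI cells, and how many of them were replicating was not tested. Among cycling cells, the replication list held 25.01% (24.5 to 25.5) of the UMIs of replication and mitotic lists together in the normal and 24.2% (24.0 to 24.5) in the wounded library. Over summed UMIs it was 37.1% in Hybrid and 35.9% in the 15 cells of normal Suprabasal, and 16.6% in the 11 cells of normal Rectum. The median over single cells was 27.6% in Hybrid and 44.7% in normal Suprabasal, so the order of these names turned with the measure. Over summed UMIs the share was 19.99% and 20.5% in wounded Basal and Suprabasal, and in Regeneration, Wound_Stress and wounded Rectum it lay between 24.8% and 26.6%.

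Chromosome structure genes (condensins, cohesins, HMG proteins, histone variants) had medians of 1.95 and 2.34, with 23 of 26 and 26 of 28 higher. H2afz, the histone variant H2A.Z, was at 2789 and 595 CPM in the normal and 2020 and 342 CPM in the wounded library, and Hmgb2, a DNA-bending protein, at 2328 and 246 CPM and at 1478 and 102 CPM. All 6 readable members of 24 replication-dependent histone genes in the normal library and 14 of 16 in the wounded library were higher. These mRNAs mostly lack a poly(A) tail, so a 3′ poly(A) library reads only a part of them, and near-identical copies can share reads. Hist1h2ap was at 162 and 1.68 CPM in the normal and 31.4 and 1.06 CPM in the wounded library. Of 12 tubulin and stathmin genes, 7 of 11 were higher in each library. Tuba1b was at 1099 and 169 CPM in the normal and 379 and 54.7 CPM in the wounded library, and Stmn1, which destabilizes microtubules, at 1220 and 187 CPM and at 1364 and 193 CPM, whereas Tubb2b had log2 ratios of −0.82 and −0.58.

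Genes of G1 and of the G1/S switch were mixed. Of 22 members, 2 of 8 readable in the normal and 8 of 19 in the wounded library were higher, with medians of −0.06 and 0.74. Ccnd1, the cyclin D1 of growth-factor input, was at 52.4 and 67.1 CPM in the normal and 43.5 and 25.3 CPM in the wounded library. In wounded Basal it was at 103 and 94.9 CPM, and in wounded Rectum at 70.5 and 24.9 CPM, a ratio of 1.4999 (0.96 to 2.04), where 1 of 5 members and 3.34% of all genes were higher. In Hybrid 3 of 3 members and 11.1% of all genes were higher, with Ccnd2 at 1.72 (1.36 to 2.09). In wounded Suprabasal, Ccnd1 had 46 UMIs in cycling and 33 UMIs in 0-UMI cells, 34.6 and 3.66 CPM. This was under the minimum of 100 UMIs and in a name where 17.1% of cycling cells had the highest doublet scores. Myc had ratios of −0.35 (−0.68 to −0.03) and −0.38 (−0.56 to −0.20). The direction of Ccnd1 therefore differed between libraries, while Myc was slightly lower in both.

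Of 19 genes of cell cycle arrest, 3 of 15 readable in the normal and 3 of 18 in the wounded library were 2-fold higher and 0 were lower. Over all genes, 5.16% and 5.50% were called higher and 4.07% and 3.62% lower. The higher members were the same 3 in both. Cdkn2c, which encodes the p18 inhibitor of Cdk4 and Cdk6, was at 81.4 and 14.1 CPM in the normal and 32.5 and 6.58 CPM in the wounded library, with log2 ratios of 2.53 (2.15 to 2.92) and 2.30 (2.02 to 2.58). Cdkn2d, which encodes the p19 inhibitor of the same kinases, had 3.02 and 2.35, and Ccng2, an unconventional cyclin, had 1.06 and 1.11. Cdkn1b (chr6:134920401-134925513), the p27 inhibitor, was at 49.4 and 27.6 CPM and at 106 and 59.1 CPM, a ratio of 0.84 in both libraries. Cdkn1a (chr17:29090976-29100727), the p21 inhibitor, was at 44.9 and 80.7 CPM and at 57.4 and 89.9 CPM, with ratios of −0.84 (−1.17 to −0.52) and −0.65 (−0.79 to −0.51). Cdkn1a varied with the name, from −2.18 (−2.91 to −1.53) in wounded Basal to 0.25 (−0.24 to 0.72) in normal Basal. CDK inhibitors were therefore found on both sides.

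Outside the lists, the 10 genes with the largest ratio in both libraries were Mxd3, Pimreg, Sapcd2, Shcbp1, Pclaf, Diaph3, Cdkn3, Lockd, Knstrn and Dbf4. Mxd3 (chr13:55325168-55329823), the Myc antagonist of the first promoter set, was at 62.4 and 0.542 CPM in the normal and 40.6 and 0.452 CPM in the wounded library, with ratios of 6.85 (5.24 to 8.45) and 6.49 (5.46 to 7.52). Pimreg, a mitotic regulator, had 5.99 and 7.33, Sapcd2, a regulator of spindle orientation, 5.72 and 6.02, and Pclaf, a PCNA-binding protein, 4.16 and 5.23. Dbf4, which activates the origin-firing kinase Cdc7, was at 77.9 and 4.12 CPM in the normal and 60.9 and 6.89 CPM in the wounded library. Each of the 5 genes with values here was at least 8-fold higher in both libraries.

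Within single names, 8 names with 20 or more cycling cells could be read. Of 1306 genes with 100 UMIs in all 8, 38 were 2-fold higher in each name and 0 were 2-fold lower in each. Within a name, the share of readable genes called higher was 3.97% in Anal Canal, 8.31% in normal Basal, 4.64% in wounded Basal, 9.06% in wounded Suprabasal, 5.26% in Regeneration, 5.35% in Wound_Stress, 3.34% in wounded Rectum and 11.1% in Hybrid. Of the 38, 26 were cell cycle members, among them Cenpf (log2 ratios from 3.63 to 7.45), Prc1 (3.60 to 8.56), Cks2 (2.45 to 4.41) and Tuba1b (2.39 to 3.02). The other 12 were Anp32e, Cbx5, Ccdc34, Dek, Dtymk, Ezh2, Lsm2, Nucks1, Pclaf, Rangap1, Rnaseh2c and Selenoh, named after their values were seen. Ezh2, the methyltransferase of Polycomb complex PRC2, lay between 1.35 and 2.26.

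Genes of squamous differentiation were lower in cycling cells. Of 22 members, 14 of 17 readable in the normal and 13 of 16 in the wounded library were 2-fold lower, with medians of −1.52 and −1.46 and 0 higher. Over all genes, 4.07% and 3.62% were called lower. Krt10 (chr11:99385254-99389364), the keratin of the first suprabasal layers, was at 407 and 1361 CPM in the normal and 137 and 601 CPM in the wounded library, with ratios of −1.74 (−1.84 to −1.64) and −2.13 (−2.21 to −2.04). Cnfn, a protein of the cornified envelope, was at 2.496 and 171 CPM and at 0.348 and 49.9 CPM. Psca (chr15:74714839-74717069), a surface protein of upper epithelial layers, was at 1.498 and 595 CPM and at 3.95 and 401 CPM. Prss27, a membrane serine protease, had 0 UMIs in normal cycling cells and 27.3 CPM in the 0-UMI cells, which made it at least 18.2-fold lower against a floor of 3 UMIs over the group. Of 4 wound keratins, 3 were lower in each library, where 4.07% and 3.62% of all genes were. Krt6b was at 5.99 and 224 CPM and at 5.57 and 53.5 CPM. The direction of the lower wound keratins differed between wounded names, read at any number of UMIs. Krt16 was higher in cycling cells in 4 of 6 names, Krt6a in 3 and Krt6b in 2. In the normal library each of these genes was higher in 0 of 2 names.

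Genes of the basal layer were within 2-fold over all names together, but not within each name. Over all names, 0 of 14 readable basal genes were called in either direction in either library, with medians of −0.04 and 0.36. Over all genes, 5.16% and 5.50% were called higher and 4.07% and 3.62% lower, so 0 called was near these shares. Krt14 was at 6815 and 8623 CPM in the normal and 4024 and 4392 CPM in the wounded library, and Krt5 (chr15:101707070-101712898), its partner keratin, at 2568 and 2527 CPM and at 1362 and 950 CPM. Within names, 5 of 11 were lower in normal Basal, with a median of −0.88, where 6.61% of all genes were called lower, and 5 of 14 were higher in wounded Suprabasal, with a median of 0.90, where 9.06% were called higher. In wounded Basal 2 of 14 were higher (4.64% of all genes), in wounded Rectum 1 of 9 was higher (3.34%) and 2 were lower (4.60%), and in Hybrid 1 of 6 was higher (11.1%). The higher gene of wounded Rectum was Krt5, with a log2 ratio of 1.06 (0.67 to 1.44). Without the highest Scrublet scores it was at 0.72 (0.22 to 1.21), within 2-fold. Krt5 was at 1115 CPM in cycling and 2380 CPM in 0-UMI cells of normal Basal, with a log2 ratio of −1.09 (−1.22 to −0.97), and at 1681 and 961 CPM in wounded Suprabasal, with 0.81 (0.74 to 0.87). In the normal library the direction of Krt5 thus differed between names, since it was at 3901 and 3577 CPM in Anal Canal, whereas its ratio was above 0 in all 6 wounded names. Other markers also moved in normal Basal. Anal gland genes, led by Mgst1, were at 1448 CPM in cycling and 501 CPM in 0-UMI cells, with 3 of 3 readable members higher, where 8.31% of all genes were called higher. Gata3, a factor of hair follicle and squamous epithelium, was at 135 and 46.0 CPM. Enteroendocrine genes were at 137 and 2066 CPM, with Pyy at 969 CPM in the 0-UMI cells. The part of these cell types in the ratios of normal Basal was not tested.

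Immediate early genes, the fast response to stress and growth signals, had 1 of 14 higher in the normal and 0 of 15 in the wounded library over all names. In both libraries 0 were lower. Over all genes, 5.16% and 5.50% were called higher and 4.07% and 3.62% lower. Junb stood at −0.15 and −0.16. Within names of the wounded library, 5 of 10 were lower in Hybrid (median −1.01), 3 of 9 in Basal (median −0.88), 3 of 11 in Rectum (median −0.60) and 1 of 14 in Suprabasal (median −0.31), where 10.5%, 3.33%, 4.60% and 4.50% of all genes were called lower. In Regeneration and Wound_Stress 0 were called, where 1.06% and 1.87% of all genes were called lower and 5.26% and 5.35% higher. These counts of 0 were near those shares.

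**Figure D4:**
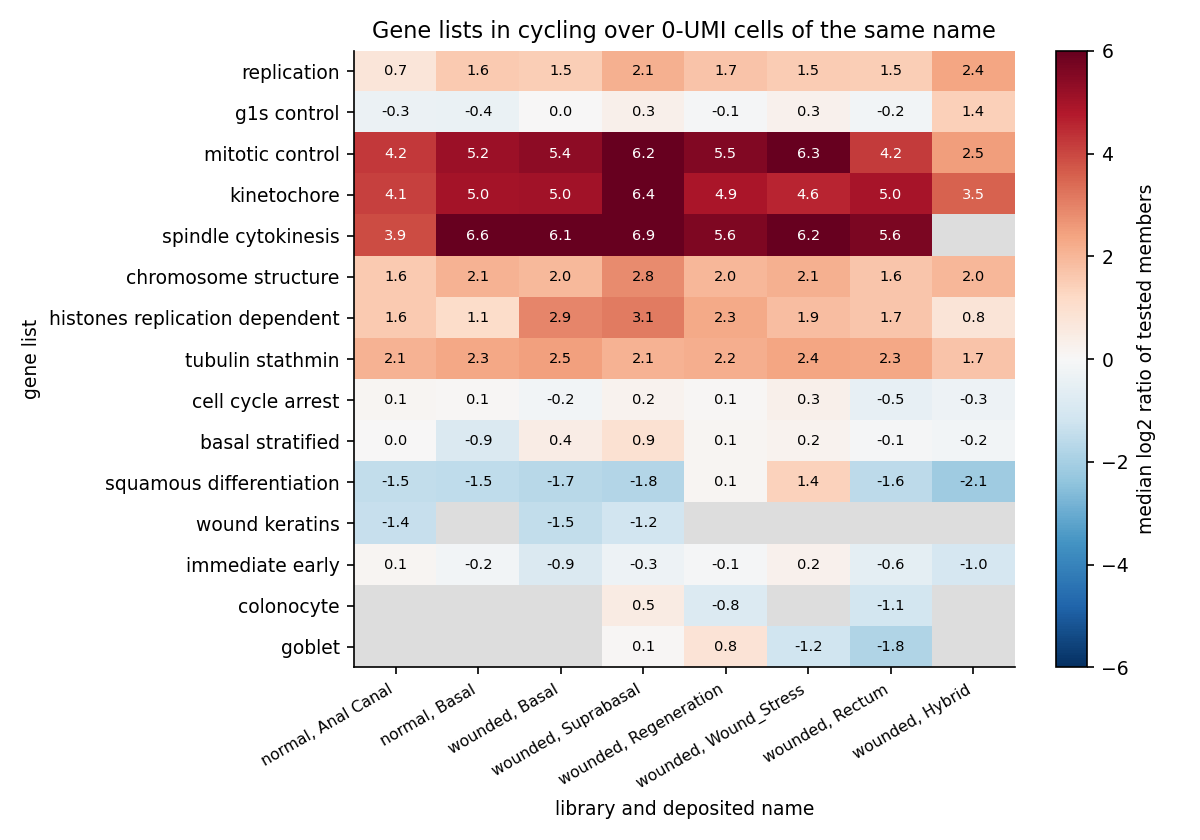
Median log2 ratio of the readable members of each list (rows) in cycling over 0-UMI cells of the same library and name (columns), with red for higher, blue for lower and gray where under 3 members could be read. Mitotic control ranged from 2.51 in Hybrid to 6.28 in Wound_Stress, and squamous differentiation was negative in 6 of the 8 columns.

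The squamous list was not lower in every name. Its median was −1.48 in Anal Canal (10 of 14 lower), −1.52 in normal Basal (5 of 7), −1.68 in wounded Basal (12 of 13), −1.78 in wounded Suprabasal (11 of 12), −1.55 in wounded Rectum (5 of 7) and −2.11 in Hybrid (9 of 9), and 0.13 in Regeneration (1 of 8 lower, 1 higher). Of all genes read in these names, 3.0%, 6.61%, 3.33%, 4.50%, 4.60%, 10.5% and 1.06% were called lower. In wounded Basal, Krt10 was at 467 CPM in cycling and 2821 CPM in 0-UMI cells, so cells named Basal held much of a suprabasal keratin. In wounded Suprabasal, Krt10 was at 32.4 and 103 CPM. The level of Krt10 goes against the layer in both names, while that of Krt5 in 0-UMI cells, 2426 CPM in wounded Basal and 961 CPM in wounded Suprabasal, goes with it, and Krtdap, at 3927 and 3950 CPM, does not separate them. The deposited names were kept as labels.

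In Wound_Stress the list pointed the other way, with a median of 1.37 and 3 of 6 members higher, where 5.35% of genes were called higher. Krt10 was at 90.1 CPM in cycling and 20.98 CPM in 0-UMI cells, with a log2 ratio of 2.10 (1.72 to 2.49), and Krtdap, a secreted protein of suprabasal keratinocytes, at 135 and 12.8 CPM, with 3.40 (2.99 to 3.83). Without the cells of the highest Scrublet scores, which left 112 cycling and 602 0-UMI cells, Krt10 was at 23.4 and 20.7 CPM, with 0.18 (−0.45 to 0.77). Krtdap was then at 7.53 and 10.2 CPM, with −0.44 (−1.59 to 0.56). The higher squamous genes in Wound_Stress thus rested on 9 cycling cells with high doublet scores. In Hybrid, with cells of 5000 or more UMIs only, Krt10 moved from −1.99 to −0.75 (−1.25 to −0.27) and Krt1 had 1.87 (1.09 to 2.72), so neither was 2-fold lower there. Krtdap was still more than 2-fold lower in these cells, at −3.37 (−3.99 to −2.80). In wounded Rectum, 2 of the lower genes also depended on cells with high doublet scores. Without them Krtdap moved from −1.62 to −0.95 (−1.38 to −0.54) and Krt1, a suprabasal keratin, from −1.55 to −0.82 (−1.23 to −0.43), both within 2-fold, and Krt10 moved from −0.28 to 0.42 (0.08 to 0.76). The lower Krt10 of wounded Basal was as large without such cells, at −2.72 (−2.84 to −2.61) against −2.59 (−2.70 to −2.49).

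Krt17 (chr11:100256217-100261029), the keratin of the transition zone whose promoter drives Cre in these mice, was at 997 and 2269 CPM in the normal and 1094 and 1737 CPM in the wounded library. Its ratios were −1.19 (−1.25 to −1.12) and −0.67 (−0.70 to −0.64). In normal Basal it was at 637 and 2599 CPM (−2.03, −2.19 to −1.87), in wounded Suprabasal at 3507 and 7894 CPM (−1.17, −1.21 to −1.13), and in Anal Canal at 429 and 675 CPM. Cycling cells of these names held less Krt17 mRNA per UMI, in normal Basal together with the higher anal gland genes (1448 against 501 CPM) and lower enteroendocrine genes (137 against 2066 CPM) given above. In Regeneration it was instead at 1330 and 957 CPM, with 0.48 (0.42 to 0.53), and 0.52 (0.45 to 0.58) without the highest Scrublet scores. In Wound_Stress it was at 215 and 83.1 CPM, with 1.37 (1.15 to 1.58), and 0.78 (0.51 to 1.04) without them. In wounded Basal it was at 218 and 478 CPM, with −1.13 (−1.30 to −0.96), and −0.29 (−0.48 to −0.11) without them, so part of that difference rested on cells with high doublet scores. In wounded Rectum it was at 92.8 and 108 CPM, with −0.22 (−0.59 to 0.14), and −1.04 (−1.58 to −0.54) without them. In Hybrid it was at 589 and 1602 CPM, with −1.44 (−1.63 to −1.26), and −0.73 (−0.95 to −0.51) in cells with 5000 or more UMIs.

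**Figure D5:**
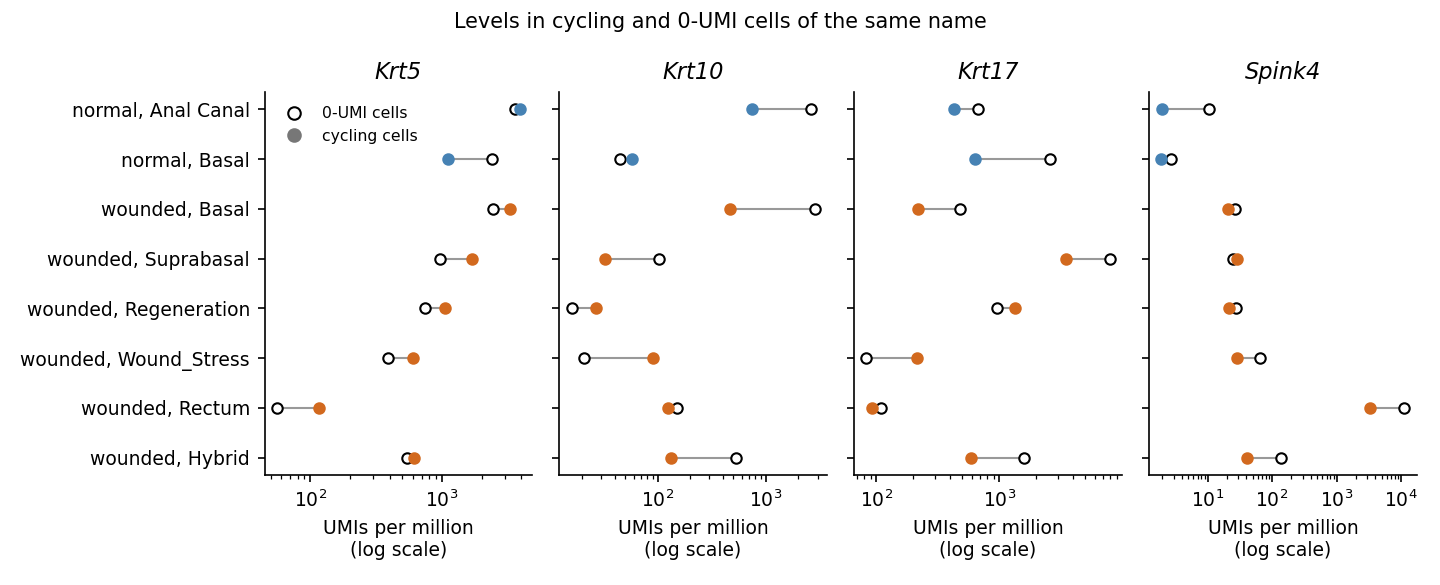
Levels of Krt5, Krt10, Krt17 and Spink4 in CPM (log scales) in cycling cells (filled, blue normal, orange wounded) and 0-UMI cells (open) of the 8 names with 20 or more cycling cells, for all cells. Krt10 in Wound_Stress (90.1 against 20.98 CPM) lost its difference without cells of high doublet scores, and Spink4 in wounded Rectum was at 3286 against 11293 CPM.

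Glandular genes were read in wounded Rectum, with 60 cycling cells. All 12 goblet genes were 2-fold lower, with a median of −1.80. Spink4 (chr4:40920052-40931395), a secreted peptide of goblet cells, was at 3286 and 11293 CPM, a log2 ratio of −1.78 (−1.84 to −1.73). The summed list was at 6252 and 27076 CPM. Goblet mRNA was thus present in the cycling Rectum cells at a lower level. In Wound_Stress, where 1.87% of genes were called lower, the 3 readable goblet genes were lower with a median of −1.18, and in Regeneration, where 5.26% were called higher, 2 of 6 were higher and 0 lower with a median of 0.80. The summed list was low there, at 59.0 and 155 CPM in Wound_Stress and 145 and 84.4 CPM in Regeneration. The part of RNA from other cells in these levels was not tested. In the 11 cycling cells of normal Rectum the summed list was at 909 CPM against 15302 CPM. In wounded Rectum 5 of 9 readable colonocyte genes were lower, with a median of −1.11, where 4.60% of all genes were called lower. Over all names of the wounded library 4 of 11 colonocyte genes were lower, against 3.62% of all genes. Of 11 readable colon stem cell genes 1 was called higher, where 5.50% of all genes were. It was Lgr5, the receptor that marks crypt base stem cells, at 6.27 and 3.08 CPM, and its ratio of 1.02 (0.50 to 1.55) lay at the threshold. In Rectum itself Lgr5 had 12 UMIs in cycling and 43 UMIs in 0-UMI cells, 13.4 and 18.2 CPM. Lgr5 is also made in the hair follicle bulge, and the follicle gene Lhx2 was higher in the same library, at 11.1 and 1.07 CPM.

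In Hybrid, the 0-UMI cells were unlike the cycling cells in more than division. Enteroendocrine genes were at 64.2 CPM in the 48 cycling and 41253 CPM in the 212 0-UMI Hybrid cells, and Pyy, the gut hormone peptide YY, had 0 UMIs in the former and 30481 CPM in the latter. Over the wounded library all 9 readable enteroendocrine genes were lower, and without Hybrid 1 was. Hair follicle genes were at 1628 and 1760 CPM in Hybrid, led by Krt25, a keratin of the inner root sheath, so both groups held cells with follicle mRNA. Dcn, a matrix proteoglycan of fibroblasts, was at 362 CPM in cycling and 7.06 CPM in 0-UMI Hybrid cells, and accounted for most of the 403 CPM of the fibroblast list. The contrast within Hybrid therefore set unlike cells against each other.

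Of the markers of cells other than epithelium, immune genes were at 3.99 CPM in normal and 6.03 CPM in wounded cycling cells, against 18.7 and 11.2 CPM in 0-UMI cells, with Cd74 as the most abundant gene and Cd3e, Cd79a and Tyrobp at 0 in cycling cells of both libraries. Endothelial genes were at 5.49 and 1.86 CPM against 7.75 and 11.2 CPM. They were led by Pecam1 except in wounded 0-UMI cells, where Ccl21a led and Hybrid held 255 UMIs of the list at 360 CPM. Melanocyte genes were at 1.997 and 4.99 CPM against 4.56 and 4.47 CPM, led by Mitf with Tyrp1 and Sox10 at 0. Fibroblast genes were at 49.9 CPM against 50.3 CPM in the normal library and at 128 CPM against 79.7 CPM in the wounded library, led by Sparc, which epithelial cells also make, with Pdgfra at 0 in cycling cells of both libraries and Col1a1, Col1a2 and Lum at 0 in those of the normal library. Dcn was at 45.3 CPM in cycling and 13.4 CPM in 0-UMI cells of the wounded library, with a log2 ratio of 1.75 (1.53 to 1.98), and at 0.87 without Hybrid. It led the fibroblast list in cycling cells of wounded Basal, at 83.5 CPM against 32.2 CPM in 0-UMI cells, and of Hybrid. At least 10 fibroblast UMIs were held by 18 of 657 cycling and 27 of 2894 0-UMI cells of the wounded library. The sort had left out PDGFRa-positive cells, and the part of fibroblast RNA in the results was not tested. Anal gland genes, led by Mgst1, were at 607 against 379 CPM and at 1139 against 1526 CPM. Hair follicle genes, led by Gata3, were at 92.3 against 72.5 CPM and at 214 against 209 CPM, with Lhx2, Shh and Krt71 at 0 in normal cycling cells. In the wounded library Lhx2, a factor of follicle stem cells, was at 11.1 CPM against 1.07 CPM.

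The reporter of the Krt17 lineage was counted in the normal library only. ZsGreen1 had 9 UMIs in 9 of the 123 cycling cells (7.32%, 3.40 to 13.4) and 27 UMIs in 25 of the 674 0-UMI cells (3.71%, 2.41 to 5.43). The level was 4.49 CPM (2.05 to 8.53) against 4.10 CPM (2.71 to 5.97), so the higher share of positive cells went with deeper cells and the levels could not be told apart at this depth. In the 15 cycling cells of Suprabasal and the 11 of Rectum it had 0 UMIs, which allows shares of cells with a UMI of up to 21.8% and 28.5%.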

How the data were processed

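Per the matrix headers and the submitters' processing notes, the authors counted reads with Cell Ranger (3.1.0 in the normal header, 4.0.0 in the wounded header) on mm10 and analysed cells with Seurat 3.2.2. The deposited matrices hold UMI counts per gene and barcode, without normalization. The deposited tables give the cells the authors kept, a cluster name for each cell, and values on a natural log scale, which were not used. The stated filters were over 200 and under 5000 genes and under 25% mitochondrial UMIs, with S and G2/M scores regressed before clustering. By the matrix counts, 9 normal barcodes under 25% mitochondrial UMIs held 5000 or more genes, and 8 of them were outside the deposited tables. Cells of glands, follicles and fibroblasts had been removed by the authors. All value columns in use were mapped to samples.

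Counts were summed over cells of 1 name and rule class and divided by their summed UMIs (CPM). Ratios within a name carry exact binomial intervals. In name-matched ratios the 0-UMI cells of each name were weighted to that name's part of the UMIs of the cycling cells, with a counting interval on the log scale. CPM of 0-UMI cells are weighted in the same way wherever names are pooled, except for summed lists of other cell types, for bins of UMIs and for ZsGreen1. Shares carry Clopper-Pearson and levels Poisson intervals at 95%. With 1 library per condition there was no test and no p. UMIs count molecules, and the intervals cover counting error only. Genes named were the 10 with the largest smaller-of-both-libraries ratio, the same outside the cell cycle lists, the same on the lower side, and members of the lists. A gene that this rule names on the lower side is not reported here. The cycling rule, the lists and the named genes were chosen with earlier results of these data known. Scrublet marked 3 of 1549 and 0 of 5225 barcodes that pass the filters (0.194% in the normal library), so its calls were not used and the 6% of barcodes with the highest scores were left out as an alternative. Other alternatives were the UMI minimum of the rule, Mki67 or Top2a alone, thinning to 3000 or 8000 UMIs, gene minima of 20 and 500 UMIs, no weighting by name, cells with under 10% mitochondrial UMIs and deeper cells. Scripts ran in Python 3.11.15 with numpy 2.4.6, scipy 1.17.1, pandas 2.3.3 and scanpy 1.11.5, and the ratio and its interval were checked on simulated counts. Gene positions are from GENCODE M21 (GRCm38) and promoter windows from RefSeq (GRCm38.p6).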

Additional observations from a re-analysis of the deposited data

Results flagged for a closer look

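Barcodes outside the deposited cells also met the rule of 3 or more UMIs of Mki67 and Top2a, a signal in data that the comparisons do not use. Among barcodes outside the deposited tables that pass the stated filters, 25 of 610 (4.10%, 2.67 to 5.99) met it in the normal and 31 of 1078 (2.88%, 1.962 to 4.06) in the wounded library. Barcodes with 5000 or more genes and under 25% mitochondrial UMIs lie past the filter on genes. Of those outside the deposited tables, 2 of 8 (25%) met the rule in the normal and 61 of 86 (70.9%, 60.1 to 80.2) in the wounded library. Among barcodes with 25% or more mitochondrial UMIs, 5 of 1003 (0.499%) and 278 of 11900 (2.34%) met it. The part of cell size, depth and doublets in these shares was not tested.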

How the results depend on the processing

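The share of cycling cells followed the rule. In the normal library it was 17.7% with 2 or more UMIs, 9.37% with 5 or more, 8.63% with Mki67 alone, 9.48% with Top2a alone, 7.68% and 4.13% after thinning to 5000 and 3000 UMIs, and 19.4% and 16.7% with 15 and 25 UMIs of the mitotic lists. In the wounded library the same settings gave 19.6%, 12.6%, 13.0%, 10.3%, 12.8%, 9.74% and, with 25 UMIs of the mitotic lists, 12.5%. After thinning to 8000 UMIs the shares were 13.8% (11.0 to 16.9) in the normal and 16.1% (14.7 to 17.5) in the wounded library, with intervals that overlapped, unlike those at 5000 UMIs. The mitotic lists were added after seeing the data and turned the order of the libraries. With a minimum of 20 UMIs per gene, 776 genes were higher and 899 lower in the normal library and 922 and 975 in the wounded library, since more genes enter. With a minimum of 500 UMIs the counts were 80 and 84 in the normal and 269 and 152 in the wounded library, with 42 and 119 cell cycle members higher. A single cell cycle member was lower (1) in the normal library with 5 or more UMIs or without weighting by name, and in the wounded library with 20 UMIs per gene. Without the cells of highest Scrublet scores, Pcsk1n in the normal library moved to 0.80 and Jchain in the wounded library to 1.29, and with under 10% mitochondrial UMIs Saa1 in the normal library moved to 1.40. Without Hybrid, an alternative added after seeing the data, Pyy moved to 0.77, Chga to 1.53, Pcsk1n to 0.19 and Sct to 0.93 in the wounded library, so the lower hormone genes there rested on Hybrid. Within names, also added after seeing the data, Wound_Stress without the highest Scrublet scores had Krt1 at −0.27 and Krtdap at −0.44, and Hybrid cells with 5000 or more UMIs had Krt1 at 1.87. Of 2282 values of named genes 1840 stayed within their interval, 435 moved and 7 reversed. Of 886 values of lists 803 stayed and 83 moved, and of 110 shares per name 53 stayed and 57 moved. The cause of each move was not tested except where stated. No paired analysis was possible because each condition is 1 library and no test was made.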

Other observations

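Over all barcodes with under 25% mitochondrial UMIs, the share that met the rule was higher in each bin of more detected genes in the wounded library, and in all but the last bin of the normal library, where 3.95% and 3.99% were next to each other. From the bin with fewest to the bin with most genes it was 2.33%, 7.03%, 9.25%, 20.2%, 41.6% and 70.9% in the wounded library and 0.962%, 3.95%, 3.99%, 14.7%, 46.7% and 33.3% (3 of 9) in the normal library. Median depth in the first and last bin was 1414 and 30743 UMIs (wounded) and 1516.5 and 28827 UMIs (normal). Levels of the rule genes without a threshold did not climb in each bin. They were 200, 154, 111, 210, 443 and 750 CPM in the wounded library. In the normal library they were 62.1, 74.6, 42.9, 92.3, 279 and 148 CPM. The part of depth in these shares was not tested.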
